A study of Drosophila melanogaster with 12 samples.

Results

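Of the 12 arrays of this feeding time course, 5 had higher readings of a set of transcripts of the male reproductive tract than the rest. They were picked out by a single probe set, that of Acp95EF, a transcript of the male accessory gland, by an intensity above 100. The arrays of hours 2, 3, 5, 9 and 10 met this rule and the other 7, of hours 1, 4, 6, 7, 8, 11 and 12, did not. Of the arrays inside the rule hour 2 had the lowest reading, 269.5, and of those outside it hour 4 had the highest, 44.0.

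All 12 arrays hold RNA of whole Drosophila melanogaster adults under a single treatment. The larvae were moved to food without yeast early in their last larval stage, and 4 days after emergence the adults were given food with yeast again, with 1 array for each of hours 1 to 12. The labels name no strain or sex, no number of flies behind an array, and no repeat of any hour. The arrays that met the rule therefore differ from the others by what was measured on them and not by a treatment, and which flies went into each array was not analysed here. Since Acp95EF and the difference between the array sets were known when the arrays were sorted, every difference between the sets is given as a description, with its standard error (SE) and no test. Hour comes from the labels and had no part in the sorting, and only slopes on hour were tested.

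In flies, the accessory glands of the male make the proteins of seminal fluid, which act on the behaviour and egg laying of the mated female. The ejaculatory bulb adds proteins of the mating plug, and the testis makes transcripts used late in sperm formation that are hardly seen in other tissues. Females make yolk proteins in the fat body and the ovary, and load the egg with maternal RNA from the nurse cells.

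The array sets interleaved along the time course, with a mean hour of 5.8 for the arrays with Acp95EF and 7.0 for the others. Median intensities lay between 113.6 and 120.2 on the 5 arrays and between 113.7 and 115.8 on the other 7. Of the fly probe sets, 18.7% to 19.9% lay at or under the 20th percentile of the table on the 5 arrays. On the other 7 it was 19.6% to 20.9%, and of these only hour 4 lay inside the range of the 5. Spike-in controls had a mean of 9.58 to 10.17 against 9.41 to 10.75 in log2 intensity. RNA quality was read from control transcripts as the 3' minus the 5' signal in log2, which overlapped between the array sets for actin (0.74 to 1.10 against 0.69 to 1.13) and eIF4A (1.37 to 1.59 against 1.16 to 1.74). For GAPDH it ran from 1.41 to 2.32 against 1.33 to 1.57, and on 4 of the 5 arrays, those of hours 2, 3, 5 and 10, it was above all 7 others. The part of these measures in the differences below was not tested.

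Differences between the sets were taken from a least squares fit of log2 intensity on hour and array set, so that they are adjusted for a linear change over the hours. Intensities under 57.2, the 20th percentile of the table, were first raised to that floor. A probe set counted as higher or lower when its hour-adjusted values did not overlap between the sets and its difference was at least 2-fold, that is 1 on the log2 scale. By this rule 16 of 13966 fly probe sets (0.115%) were higher on the arrays with Acp95EF and 0 were lower (0%). Of the 16, 11 had 1 gene name, 3 had several and 2 were unnamed. With no overlap as the sole condition 242 probe sets (1.73%) were higher and 66 (0.473%) lower. Read without the floor these numbers were 345 (2.47%) and 76 (0.544%), of which 35 (0.251%) and 0 (0%) differed at least 2-fold. Of the 35, 22 lay under the floor on all 7 other arrays. In RNA of whole flies, fewer cells of a type and less RNA per cell cannot be told apart.

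**Figure D1:**
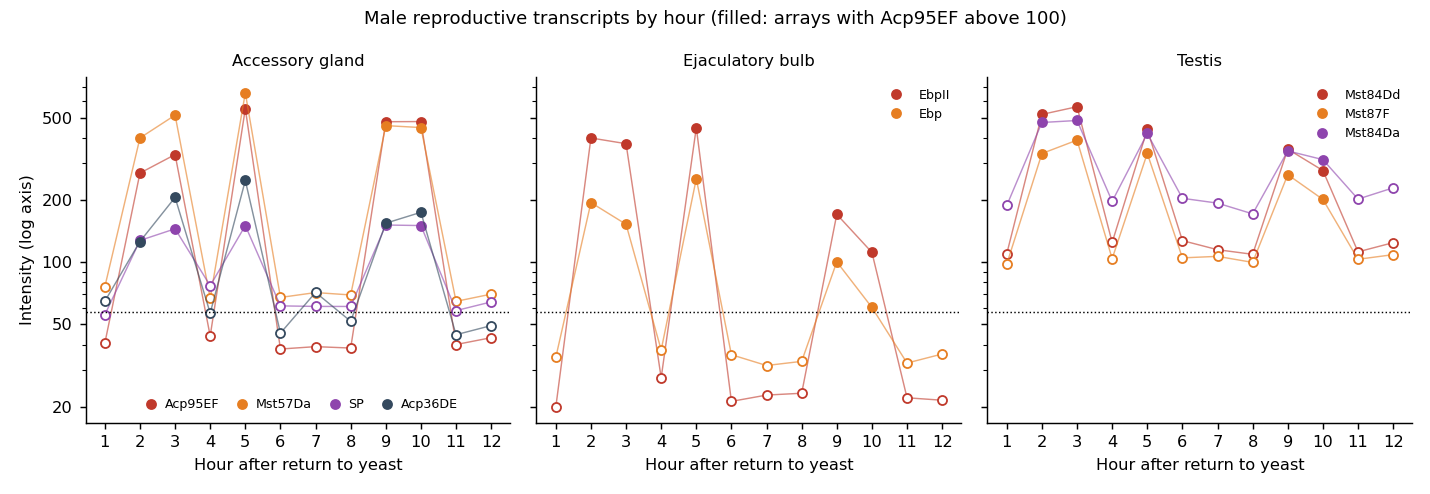
Intensity on a log axis against hour for 4 accessory gland, 2 ejaculatory bulb and 3 testis transcripts, with filled points for the 5 arrays with Acp95EF above 100, open points for the other 7 and a dotted line at the floor of 57.2. At hours 2, 3, 5, 9 and 10 each transcript shown read higher than on any other array.

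The 4 markers that name the array sets stood apart on the same arrays. Acp95EF, a small secreted peptide of the accessory gland, read 269.5, 331, 552, 477 and 478 at hours 2, 3, 5, 9 and 10. On the other arrays it ran from 38.0 to 44.0 with a median of 39.996, all under the floor. The difference was 2.87 ± 0.15 (SE, n = 5 and 7 arrays) with the floor and 3.37 without it. Since Acp95EF sorted the arrays, its own separation carries no information. EbpII, Mst84Dd and Mst87F were chosen as markers with earlier results of these data known. Their separation is described and is no independent support.

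EbpII, a protein gene of the ejaculatory bulb, read 398, 374, 447, 170.3 and 111.6 at hours 2, 3, 5, 9 and 10. The other arrays lay between 19.9 and 27.6 with a median of 22.1. Its difference was 2.10 ± 0.29 with the floor and 3.45 without it. The lowest of the 5 arrays, hour 10, was still above the whole range of the other 7.

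Mst84Dd, a male-specific transcript of the testis, read 518, 564, 438, 352 and 277 on the 5 arrays, and from 109.2 to 127.2 with a median of 114.9 on the others, a difference of 1.78 ± 0.15. Mst87F, of the same kind, read 335, 389, 336, 265 and 201.1 against 98.1 to 108.8 with a median of 104.0, a difference of 1.49 ± 0.13. For both, the 5 arrays lay above the whole range of the other 7, where both stayed above the floor.

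Among the accessory gland transcripts Mst57Da came closest to Acp95EF in size. It read 399, 514, 658, 457 and 447 on the 5 arrays against 64.7 to 76.1 with a median of 69.4, a difference of 2.80 ± 0.11. Hour 5 was the highest array for both. Acp36DE, a seminal fluid protein needed for sperm storage in the female, read 125.9, 205.6, 248, 154.3 and 174.2 against 44.6 to 71.5 with a median of 51.8, a difference of 1.55 ± 0.16. SP encodes the sex peptide, which lowers the receptivity of the mated female and raises her egg laying. Its intensities were 127.4, 145.0, 150.3, 151.2 and 150.3 against 55.7 to 77.0 with a median of 61.1, a difference of 1.21 ± 0.08. SP was the most even of these transcripts over the 5 arrays, and the ranges of the sets did not overlap for Mst57Da, Acp36DE or SP.

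Of the 28 measured genes of the accessory gland list, 4 were at least 2-fold higher by the rule and 0 lower, beside 0.101% of all 10844 genes higher at 1 probe set a gene. The 4 were Acp95EF, Mst57Da, Acp36DE and SP. The list's median difference was 0.16, beside 0.00 over all genes. Much of the list lay under the floor on every array, and only 17 of the 28 were above it on at least 3 arrays. Read without the floor, 19 of the 28 were higher with no overlap and 0 were lower, beside 2.66% and 0.563% of all genes. At least 2-fold higher then were 14 of the 28, beside 0.249% of all genes, and the list's median difference was 0.97. Acp76A, which encodes a serine protease inhibitor of seminal fluid, read 12.1, 24.0, 25.2, 17.1 and 25.9 on the 5 arrays and from 5.33 to 7.44 on the others. Acp53Ea read 25.2, 29.96, 36.8, 22.6 and 28.1 against 7.69 to 12.4. Both lay under the floor on all 12 arrays. Other genes of the list overlapped between the sets, such as intr, whose medians were 205.8 and 181.8, and antr, at 82.5 and 76.6. The genes of this paragraph other than the 4 were chosen after their values were seen.

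The largest difference over all probe sets belonged to a probe set annotated to several genes, 144211_at, and no gene is named from it. It read 597, 932, 806, 697 and 933 at hours 2, 3, 5, 9 and 10 against 46.1 to 58.3 with a median of 52.7 on the other arrays, a difference of 3.78 ± 0.11. The unnamed probe set 143672_at read 365, 745, 780, 631 and 610.2 against 92.5 to 98.2, a difference of 2.68 ± 0.17. For both, hour 2 was the lowest of the 5 arrays, as it was for Acp95EF, Mst57Da, Acp36DE and SP.

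Of 5 genes of the ejaculatory duct and bulb, 1 met the rule, EbpII, beside 0.101% of all genes. Ebp, the gene of another bulb protein, read 194.1, 152.4, 253, 100.4 and 60.4 at hours 2, 3, 5, 9 and 10 against 31.7 to 37.7 on the others. Its difference of 1.16 ± 0.28 was over 2-fold, but after adjustment for hour its floored values overlapped, so it was not called. Anp, an antibacterial peptide gene of the ejaculatory duct, read 131.5, 168.5, 218.3, 174.0 and 140.2 against 104.5 to 128.1, a difference of 0.50 ± 0.13. The bright EbpIII did not separate the sets, with medians of 2070 and 2066, and neither did Gld, a glucose dehydrogenase gene expressed in the ducts, at 119.1 and 117.0. The list's median difference was 0.50.

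Of 53 genes of testis and sperm, 3 were at least 2-fold higher and 0 lower, beside 0.101% and 0% of all genes. The list's median difference was 0.07. The 3 were Mst84Dd, Mst87F and Mst84Da. Mst84Da read 473, 484, 419, 345 and 313 against 171.2 to 228.7 with a median of 196.8, a difference of 1.00 ± 0.12. Its neighbours in name, Mst84Db and Mst84Dc, were separated with smaller differences of 0.78 ± 0.08 and 0.67 ± 0.09. These genes are related in sequence, and whether their probes share signal was not tested. With no overlap as the sole condition 11 of the 53 were higher and 0 lower, beside 1.87% and 0.480% of all genes. Read without the floor, 15 of the 53 were higher with no overlap and 0 were lower, beside 2.66% and 0.563% of all genes. At least 2-fold higher then were 5 of the 53, beside 0.249% of all genes. The list's median difference without the floor was 0.21, beside 0.02 over all genes. The others included bright transcripts that overlapped between the sets. Examples chosen after their values were seen are bol, a regulator of meiosis in sperm formation, with medians of 668 and 631, and Mst98Ca, with 566 and 531. The don juan gene dj, which encodes a sperm tail protein, lay under the floor on all 7 other arrays, at 10.8 to 13.4, and read 73.4, 79.3, 62.4, 38.5 and 40.1 on the 5.

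The remaining genes among the 10 largest differences were in no list. The gene salto read 162.4, 180.2, 159.8, 93.8 and 109.6 on the 5 arrays against 54.3 to 59.9 on the others, a difference of 1.20 ± 0.13. CG8701 read 161.8, 181.0, 151.4, 94.0 and 107.6 against 49.3 to 70.7, a difference of 1.14 ± 0.13. CG34168 read 155.1, 155.5, 141.3, 93.3 and 95.0 against 39.5 to 47.9, a difference of 1.08 ± 0.12. In all of them hours 2, 3 and 5 were above hours 9 and 10, the order also seen in Mst84Dd, Mst87F and Mst84Da.

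**Figure D2:**
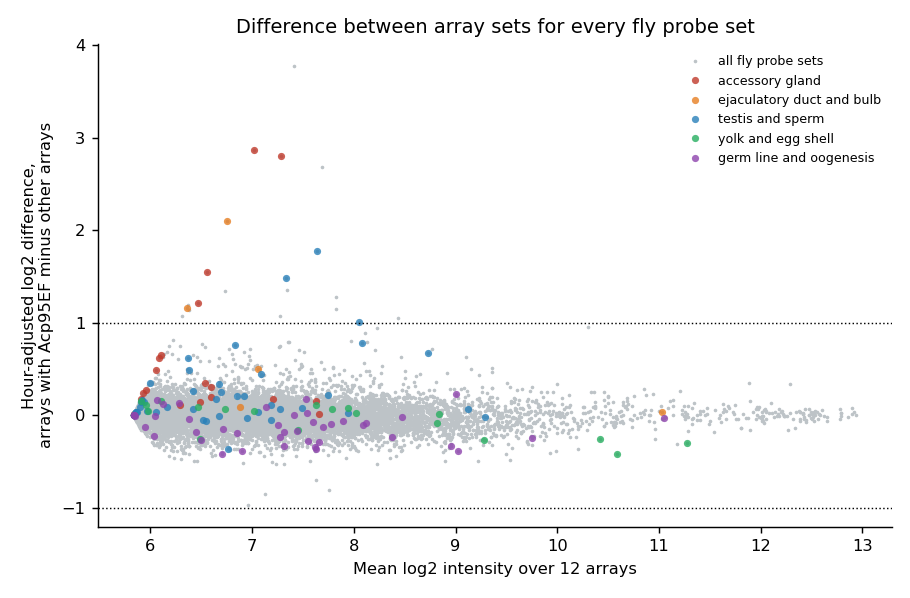
Hour-adjusted log2 difference between the arrays with Acp95EF and the other arrays against mean log2 intensity, 1 point a fly probe set, with dotted lines at 2-fold in either direction. All 20 probe sets at or above the upper line, of which 16 also did not overlap, stand above the dense band around 0, and none reaches the lower line, the most negative difference being -0.97.

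The positions of the higher genes are given as counts, without a test. Of 24 genes at least 1.5-fold higher with no overlap and with a known chromosome 1 was on the X (4.17%), where 16.3% of the genes on the array lie, and 12 were on 3R (50%), where 25.2% lie. The 12 include the related genes Mst84Da, Mst84Db, Mst84Dc and Mst84Dd. Read without the floor, 3R held 8 of the 27 genes at least 2-fold higher (29.6%) and the X 0 (0%). Of the 11 genes at least 2-fold higher 0 were on the X, 5 on 3R, 3 on 2R, 2 on 2L and 1 on 3L. Among the genes higher by any margin with no overlap 18 of 202 (8.91%) were on the X, and among those lower 11 of 52 (21.2%). None of the 11 genes of the Y chromosome list was matched to a probe set (0 of 11), so they give no value.

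Levels within the 5 arrays are given as a description, with no test of a difference between gland and testis genes. Relative to its own mean over them, Acp95EF stood at 0.64 and 0.79 at hours 2 and 3 and at 1.31, 1.13 and 1.13 at hours 5, 9 and 10. Mst84Dd stood at 1.21, 1.31 and 1.02 at hours 2, 3 and 5, and at 0.82 and 0.65 at hours 9 and 10. EbpII stood at 1.33, 1.25, 1.49, 0.57 and 0.37. Acp95EF was lowest at hours 2 and 3, where Mst84Dd was highest, and EbpII was lowest at hours 9 and 10. The split into hours 2, 3 and 5 against hours 9 and 10, and the 1.5-fold limit for it, were chosen after the values were seen.

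Taken as the mean log2 intensity of hours 9 and 10 minus that of hours 2, 3 and 5, all 7 testis genes that were higher by at least 1.5-fold read lower on the later arrays, from -0.69 to -0.26 with a median of -0.48. Of 6 accessory gland genes 4 read higher and 2 lower on them, from -0.18 to 0.38 with a median of 0.13. The gland genes Mst57Da and Acp36DE, at -0.18 each, were close to the testis gene Mst84Db at -0.26. EbpII had -1.56. Of the 20 such probe sets in no list 3 read higher and 17 lower, with a median of -0.41. Over all 11586 probe sets that exceeded the floor on 3 or more arrays, 7613 read higher and 3921 lower. Their median was 0.05. Since these members share their arrays, they are not independent of each other.

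**Figure D3:**
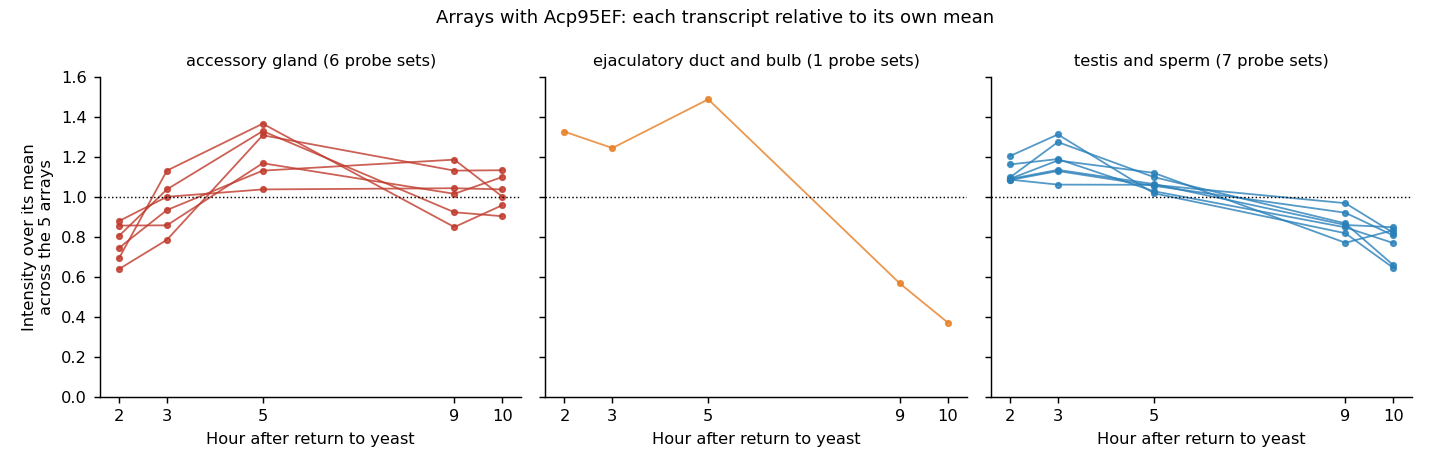
Intensity divided by the transcript's own mean over the 5 arrays with Acp95EF, against hour, for the 6 accessory gland, 1 ejaculatory bulb and 7 testis transcripts at least 1.5-fold higher there with no overlap. Testis transcripts stay above 1 at hours 2, 3 and 5 and below 1 at hours 9 and 10, while accessory gland transcripts are below 1 at hour 2 with values from 0.64 to 0.88.

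A slope on hour was tested within the 5 arrays with limma over 11269 probe sets. In all 36 passed at an adjusted p under 0.05 (0.319%), 14 rising (0.124%) and 22 falling (0.195%). Of the 34 probe sets at least 1.5-fold higher on these arrays 1 passed, CG34168, which fell by 0.82 ± 0.11 on the log2 scale over the 8 hours from hour 2 to hour 10 (limma adjusted p = 0.0493). The slope was below 0 for 26 of the 34 and above it for 8, while over all probe sets it was below 0 for 3948 and above it for 7321. Mst84Dd had a change of -0.90 ± 0.13 (limma adjusted p = 0.0532), Mst84Da of -0.62 ± 0.10 (0.0579) and EbpII of -1.81 ± 0.32 (0.0707), none past the threshold. Neither the gland list, with 17 genes tested, nor the testis list, with 38, nor that of duct and bulb, with 5, held a gene that passed here (0 in each). Without hour 2 or hour 9 no probe set passed (0 in both), and with hour 3, 5 or 10 left out at most 3 passed in either direction.

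Of 18 yolk and egg shell genes tested within the 5 arrays 3 rose and 0 fell, and of 17 gut genes 5 rose and 0 fell, beside 0.124% of all probe sets rising and 0.195% falling. The yolk protein gene Yp1 rose by 1.94 ± 0.14 over the 8 hours (limma adjusted p = 0.0127) and Yp3 by 1.86 ± 0.21 (0.0421). The gut protease gene Jon25Biii rose by 1.11 ± 0.13 (limma adjusted p = 0.0421) and Jon25Bii by 2.12 ± 0.26 (0.0445), and CG15818 rose by 1.51 ± 0.15 (0.0379). Culd fell by 1.33 ± 0.09 (limma adjusted p = 0.0127), CG15098 by 1.29 ± 0.10 (0.0131) and CG3662 by 1.12 ± 0.10 (0.0215). Also falling were lncRNA:CR42862 and the eye enzyme gene t (tan), by 1.21 ± 0.11 (limma adjusted p = 0.0253) and 1.05 ± 0.11 (0.0421). The same slopes on the 7 other arrays, over 11 hours, were 2.94 for Yp1, 2.43 for Yp3, 1.17 for Jon25Biii, 3.00 for Jon25Bii and 0.87 for CG15818. They were -0.99 for Culd, -0.81 for CG15098, -1.08 for CG3662, -1.29 for lncRNA:CR42862 and -1.33 for t.

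The difference in slope between the array sets, tested as an interaction in limma, passed an adjusted p of 0.05 for 0 of 11586 probe sets (0%). An unadjusted p under 0.05 was reached by 921 of them, and the smallest adjusted p was 0.0519. It was that of CG34168, which lay under the floor on all 7 other arrays, so that its slope there was fixed at 0 and the value of -0.82 repeats its slope within the 5 arrays. For Yp1 the limma adjusted p of the difference was 0.851, for Jon25Bii 0.979, for CG15818 0.468 and for CG15098 0.543. With 5 arrays in a set, a p that misses the threshold does not show that the slopes were alike.

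In the other direction 0 probe sets met the 2-fold rule. Lower by at least 1.5-fold, with no overlap of the hour-adjusted values, were 3 (0.0215%), beside 34 higher (0.243%). The 3 were the unnamed probe set 147431_at, bt and BomS2, and all were named after their values were seen. Probe set 147431_at read 52.6, 67.2, 75.6, 113.3 and 96.8 at hours 2, 3, 5, 9 and 10 against 112.8 to 311 on the others, a difference of -0.97 ± 0.12. BomS2, an immune-induced peptide gene, read 124.1, 153.2, 194.3, 208.2 and 113.0 against 224.9 to 345, a difference of -0.81 ± 0.18. The muscle gene bt, which encodes a giant kinase of the sarcomere, read 151.6, 102.3, 120.02, 63.1 and 99.2 on this probe set against 127.5 to 238.2, a difference of -0.85 ± 0.18. Before adjustment for hour the intensities of this bt probe set and of 147431_at overlapped between the sets. The brighter probe set of bt differed by -0.36 ± 0.16 and overlapped after the adjustment as well.

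Of 43 genes of the germ line and oogenesis 0 met the rule, but 32 had a difference below 0, 8 above it and 3 at 0. Their median was -0.11, and 74.4% were below 0, beside 41.5% of all genes. The maternal RNA genes pgc and osk had differences of -0.42 ± 0.19 and -0.38 ± 0.15. For osk, which directs the assembly of the germ plasm, intensities were 379, 515, 500.2, 400 and 448 on the 5 arrays, and on the others they ran from 431 to 720.3 with a median of 600. The gene swa, whose product helps to place bicoid RNA in the egg, differed by -0.39 ± 0.15. These ranges overlapped, and no member was separated with the floor. The members share arrays, and their number is no count of independent observations.

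The yolk and egg shell list had no member that met the rule (0 of 20), and its median difference was 0.04. Yp1, which encodes a yolk protein, read 579, 740, 1008, 2242 and 2070 at hours 2, 3, 5, 9 and 10 and from 632 to 5204 with a median of 1797 on the other arrays. Adjusted for hour it differed by -0.42 ± 0.13, Yp3 by -0.30 ± 0.16 and Yp2 by -0.25 ± 0.18. The oocyte receptor of yolk, yl, differed by -0.26 ± 0.18, and chorion and vitelline membrane genes such as Cp36 and Vm26Aa by 0.03 ± 0.06 and 0.01 ± 0.24. All these genes overlapped between the sets.

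**Figure D4:**
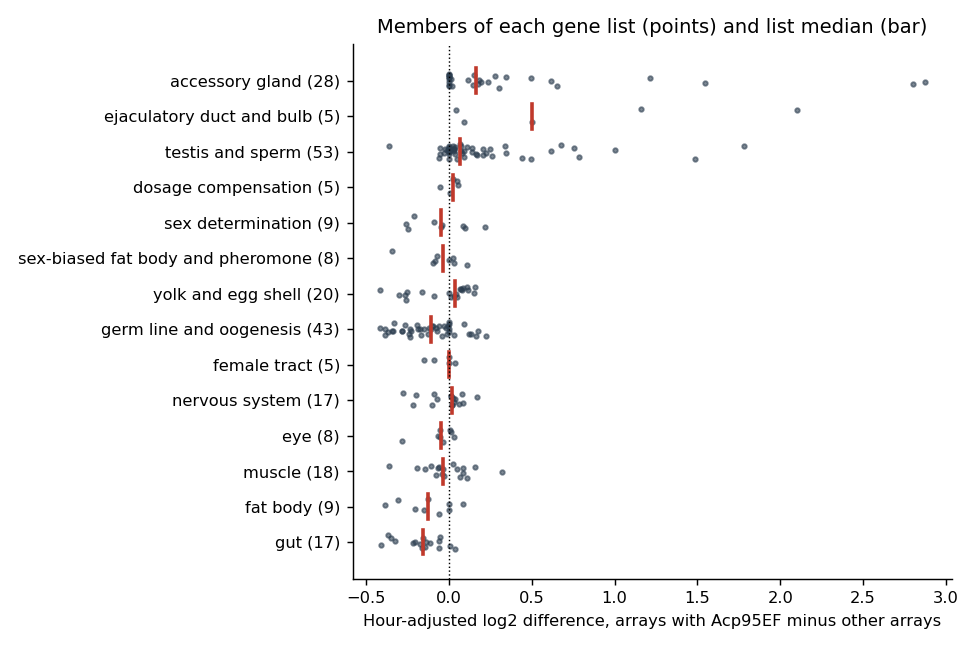
Hour-adjusted log2 difference between the array sets for each measured gene of 14 lists, with a bar at each list's median and the number of genes in brackets. The points beyond 1 belong to the accessory gland, ejaculatory and testis lists, and the germ line, fat body and gut lists have medians of -0.11, -0.13 and -0.15.

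Of the 9 genes of sex determination and the 5 of dosage compensation, 0 met the rule. Sxl, the switch gene of sex determination, is measured by more than 1 probe set. The brighter read 92.2, 94.1, 105.9, 79.4 and 114.3 against 98.7 to 145.1 with a median of 112.5, a difference of -0.25 ± 0.13 with overlap. Another read 77.2, 70.5, 77.0, 66.7 and 75.7 against 81.3 to 110.4, a difference of -0.33 ± 0.07 with no overlap. The splicing regulators tra and tra2, which act below Sxl, differed by -0.04 ± 0.05 and -0.26 ± 0.11. Their targets dsx and fru, transcription factor genes spliced differently in the sexes, differed by 0.22 ± 0.10 and 0.09 ± 0.05. For msl-2, whose protein is made in males only and acts on the X, intensities ran from 105.9 to 134.4 against 111.3 to 140.6, a difference of 0.05 ± 0.07. The male-specific RNAs roX1 and roX2 were matched to no probe set of their own and are not analysed here.

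Fat body, gut, nerve and muscle genes, the other tissues of a whole fly, held 0 genes that met the rule. Of 17 gut genes 15 had a difference below 0, with a median of -0.15 and Mal-A6, a maltase, the lowest at -0.41 ± 0.16. Of 9 fat body genes 7 were below 0, with a median of -0.13 and a lipid carrier precursor, apolpp, the lowest at -0.38 ± 0.18. Over all genes 41.5% were below 0. With no overlap of the hour-adjusted values as the sole condition, 1 of the 9 fat body genes was lower, beside 0.48% of all genes. It was Fer1HCH, at -0.15 ± 0.04, named after its values were seen, while apolpp overlapped. The members of each list share arrays, so these are no counts of independent observations. The summed intensity of the fat body list ran from 6764 to 7682 on the 5 arrays and from 7353 to 8284 on the others. The median difference was 0.02 over 17 nervous system genes, -0.04 over 8 eye genes and -0.03 over 18 muscle genes. In the list of sex-biased fat body and pheromone genes 0 of 8 met the rule. Its median was -0.04, and the desaturase gene Desat1 had the largest difference, -0.34 ± 0.15. Of the female tract, Send1 and Send2, protease genes of the sperm storage organs, differed by -0.15 ± 0.12 and 0.03 ± 0.03.

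**Figure D5:**
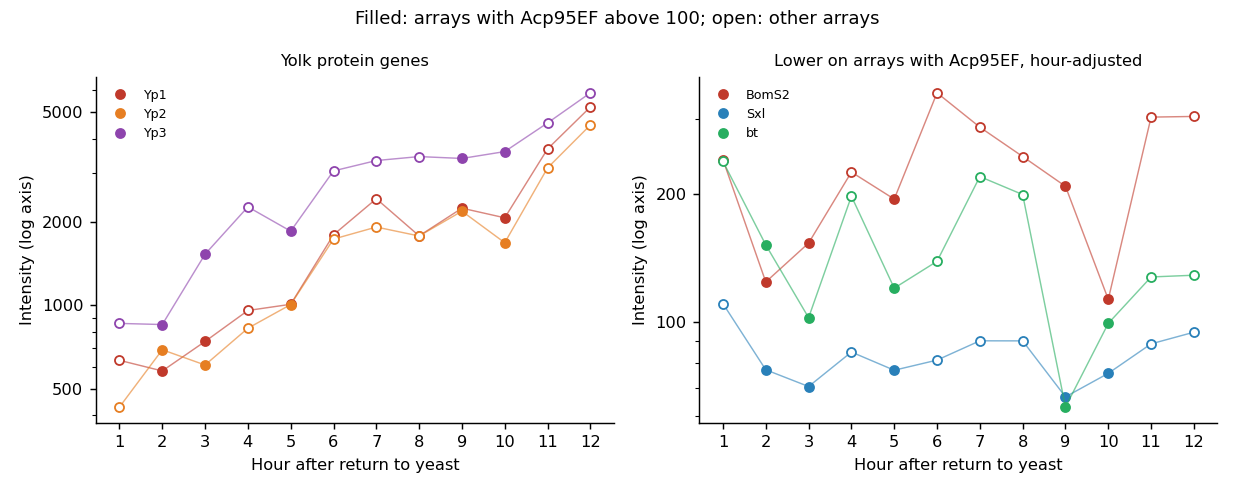
Intensity on a log axis against hour for the yolk protein genes Yp1, Yp2 and Yp3 and for BomS2 and 1 probe set each of Sxl and bt, with filled points for the 5 arrays with Acp95EF above 100. The yolk genes climb through both kinds of array, and BomS2 reads at most 208.2 on the filled points and at least 224.9 on the open ones.

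Taking the array set into account changed which transcripts followed the hours for a minority of calls. With the array set as covariate 1659 of 11586 probe sets (14.3%) had a limma slope on hour past the threshold, 992 rising (8.56%) and 667 falling (5.76%), and with hour alone 1554 had one. The fits shared 1490 calls, all with the same sign, which is 95.9% of the calls from hour alone and 89.8% of those with the covariate. The median SE of the change over 11 hours went from 0.105 to 0.100. Without hour 1, however, the counts with the covariate were 446 and 257.

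Where no array of the 12 was at the floor, the rises and falls with the smallest p, 5 of each, were as follows. Yp1 rose by 2.84 ± 0.18 over 11 hours (limma adjusted p = 4.47e-06), Yp2 by 2.88 ± 0.23 (2.18e-05) and Yp3 by 2.48 ± 0.22 (3.82e-05). GstE9, a glutathione transferase gene, rose by 1.13 ± 0.09. The dimmer probe set of apolpp rose by 1.85 ± 0.18. Its brighter probe set, which was not among the 5, rose by 0.95 ± 0.23. Among the falls t changed by -1.37 ± 0.11, lncRNA:CR31781 by -1.26 ± 0.10, Oda, an ornithine decarboxylase antizyme gene, by -1.07 ± 0.09, BomS6 by -1.91 ± 0.18 and the kinase gene Lk6 by -1.30 ± 0.13. The gut protease gene Jon25Bi, under the floor at hours 1, 2 and 3, rose by 2.15 ± 0.15 (limma adjusted p = 9.67e-06). Of 38 testis genes tested 3 fell in this fit and 0 rose, a share near the 5.76% of all probe sets that fell. They were f-cup, by 0.57 ± 0.09 (limma adjusted p = 0.00127), bol, by 0.60 ± 0.12 (0.00397), and Prosalpha4T1, by 0.54 ± 0.11 (0.00443), named after their values were seen, and none of the 3 separated the array sets. Of the gland list 10 genes passed the filter on the 7 other arrays, and within those arrays 0 rose and 0 fell. In the fit with the covariate 11 of 39 germ line genes tested rose and 2 fell, and of 8 eye genes 0 rose and 7 fell, beside 8.56% of all probe sets rising and 5.76% falling. Within the 7 arrays alone 1138 of 11264 probe sets passed (10.1%), 688 rising (6.11%) and 450 falling (4%), and without hour 1 these counts were 223 and 68. They were 275 and 135 without hour 11 and 443 and 130 without hour 12.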

How the data were processed

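Affymetrix DrosGenome1 arrays of whole adult flies gave 1 value per probe set and hour. Per the labels, total RNA was extracted in Trizol, and the authors used dChip with an invariant selection to normalize the arrays. The deposited values are linear intensities. For the dChip version and background model, nothing is stated in the sources used. Of 14010 probe sets 44 were controls and 13966 measured fly transcripts, of which 12443 had 1 gene symbol, 327 several and 1196 none in the platform annotation used here. Chromosomes came from RefSeq genes (assembly Release 6 plus ISO1 MT). All columns belonged to the 12 arrays (0 others). Precision is limited by the number of arrays.

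No further normalization was applied. Intensities under the 20th percentile of the table, 57.2, were raised to it before log2. Arrays were sorted by Acp95EF above 100, and differences came from a linear fit on hour and array set over all fly probe sets with no filter. Slopes on hour were tested with limma 3.58.1 in R 4.3.3 on probe sets that exceeded the floor on 3 or more arrays of the fit, at a Benjamini-Hochberg adjusted p under 0.05, and are given as changes over the hours spanned. Nothing says that the arrays came from separate cultures, so p-values measure the spread between these arrays, which may be technical. On simulated data the 2-fold rule recovered 100% of 200 probe sets changed by 1.5 or 2 on the log2 scale. Differences nearer its limit of 1, and differences lost under the floor, were not simulated. The 12-array slope recovered 74.6% of changes of 0.5 over 11 hours, 98.5% of 1 and 100% of 2, among 13966 probe sets. Within the 5 arrays a change of 1 over 11 hours, which is less over the 8 hours that they span, was recovered in 56.7%.

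The markers, lists and tests were chosen with earlier results of these data known. Genes in lists are represented by their brightest probe set (10844 genes). Named genes are the 10 largest separated differences with 1 symbol in each direction, the 3 largest differences of each list, the 5 clearest rises and falls of each slope test among probe sets above the floor on every array of the fit, and Acp95EF, Mst84Dd, Mst87F, EbpII, SP, Yp1, Yp2, Yp3, roX1, roX2, msl-2, Sxl, tra, dsx and fru. Some of these are left out of the text, and the text says which other genes were chosen after their values were seen. Alternatives were quantile and median normalization, other floors, filters, thresholds and hour terms, another variance model, and each array left out. No floor and no minimum difference were added after seeing the data.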

Additional observations from a re-analysis of the deposited data

Results flagged for a closer look

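Intensities of 49 named genes, not adjusted for hour, were screened for 1 array far from the rest by Dixon's criterion. Each gene gave 1 set of values in each array set, and chance meets the criterion in about 1 of 20 sets. The criterion picked out 10. On the arrays with Acp95EF these were SP at hour 2, lower than the rest at 127.4, sxe2 at hour 3, higher at 91.3, yl at hour 2, lower at 392.5, bt at hour 10, lower at 200.4, and apolpp at hour 10, higher at 1515. On the other arrays SP at hour 4 (77.0), CG8701 at hour 4 (70.7) and msl-2 at hour 4 (140.6) were higher than the rest, as were Ddc (199.1) and trp (588) at hour 1.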

How the results depend on the processing

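No paired analysis was possible because the arrays form 1 labelled group. The 16 probe sets higher on the arrays with Acp95EF became 10 with the floor at the 40th percentile, 35 with no floor, 34 at 1.5-fold, 5 at 4-fold, 242 with no minimum difference and 8 among those above the floor on all 12 arrays. With 1 array left out they were 14 to 17. The 0 lower became 3 at 1.5-fold and 66 with no minimum difference, and 0 to 1 with 1 array left out. Other thresholds on Acp95EF, 60 and 200, could not change the array sets, since no array read between 44.0 and 269.5. Of 1205 alternative values of the 49 named differences, 34 moved by over 1 residual SD and 0 of the called ones changed sign.

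With the array set as covariate, rises numbered 446 to 1213 and falls 257 to 800 with 1 array left out. Within the 5 arrays the 14 rises and 22 falls became 44 and 112 with quantile normalization, 30 and 79 after median centring, 4 and 10 when the floor was the 40th percentile, 0 and 0 without a filter, and 30 and 51 with an intensity trend and robust fitting. Falls were 14 with log2 of hour, and leaving out 1 array gave 0 to 3 of either. Within the 7 arrays 688 and 450 became 146 and 99 without a filter, and 223 to 671 and 68 to 671 with 1 array left out. For the difference of slopes, 0 rises and 0 falls became 6 falls with quantile normalization, 1 with the floor at the 10th or 40th percentile or no floor, 2 with robust fitting, 1 rise and 2 falls without a filter, and 0 to 3 falls with 1 array left out. The causes were not tested. With 5 arrays in 1 set, the slopes within it have the least support, and signals under the floor have no firm scale.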
